A study of Homo sapiens with 2 samples.

Results

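The genes that make cholesterol and fatty acids, with the regulators of the sterol regulatory element-binding proteins (SREBPs), were compared between WT and PERK-KO HEK293 cells. The members were chosen by gene symbol. Of the 33 symbols given, 31 were listed in the tables of both samples, because MSMO1 and SC5DL each stand for a gene that was also given under another name, among 25277 rows in all. HEK293 is a line of human embryonic kidney cells. PERK-KO cells were made from it with Cas9 and a guide against EIF2AK3, the gene of the ER kinase PERK, and were taken through single-cell seeding, so a KO line can carry the particular features of a clone. Both genotypes were held for 12 h in OXPHOS medium, which has galactose and pyruvate in place of glucose, and no sample in glucose was analysed here. RNA of 1 sample per genotype was sequenced after poly(A) selection, so no difference could be tested against the spread between cultures.

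SREBPs are transcription factors made as membrane proteins of the ER. SCAP, a sterol sensor, carries them to the Golgi apparatus when membrane cholesterol is low, where proteases release the active factor. INSIG proteins hold SCAP in the ER when sterols are plentiful. SREBP-2, from SREBF2, is known mainly for the genes of cholesterol synthesis, and SREBP-1, from SREBF1, for those of fatty acid synthesis. Because the SREBP precursor and PERK are both ER membrane proteins, this pathway is among those read when the ER is disturbed.

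The values are FPKM, fragments scaled by transcript length and by library size, so levels may be compared between genes. Each value is followed by its deposited confidence limits, which cover the counting error of 1 library. A gene was counted where either sample reached an FPKM of 1. All 31 members did, as did 14594 rows of the whole series. The distance from a value to its limits was 1.54% to 10.6% of the value in WT and 1.40% to 10.8% in PERK-KO cells. EIF2AK3 itself had 5.61 (5.11 to 6.12) in WT and 3.89 (3.44 to 4.34) in PERK-KO cells. Its transcript was thus lower but present, and FPKM does not tell whether it encodes a whole protein. Of the HEK293 markers, KRT8, KRT18, VIM and NEFL were above 30 in both samples, PAX2 was below 1 in both, and NEFM had 0.662 in WT and 5.21 in PERK-KO cells. The adipocyte genes UCP1, CIDEA and FABP4 and the hepatocyte gene ALB were listed at 0 in both, while ADIPOQ had 1.68 and 1.42. HSPA5, the ER chaperone BiP, had 161 (158 to 164) in WT and 679 (672 to 685) in PERK-KO cells, and its part in the differences of the lipid genes was not tested.

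The promoter sequences show which letters known to be read by SREBP and its partners lie near the members' start sites. RefSeq promoters of GRCh38.p14, from 250 bases before to 50 bases after a start, were found for 27 members, with none for ACAT2, FDFT1, SQLE and FASN. The letters TCACNCCAC, a form of the sterol regulatory element (SRE), were searched on both strands and were present in 1 of the 27 (3.70%), SREBF2, compared with 1.5% of 10686 expressed genes with a promoter and 1.39% of all 27305. The E-box CACGTG, which SREBPs and other factors can bind, was present in 4 (14.8%), INSIG1, SCAP, SC5DL and LSS, compared with 12.5% of expressed genes and 8.77% of all. CCAAT, the box of NF-Y, which is known to act beside SREBPs, was present in 20 (74.1%), compared with 43.3% and 39.7%. GGGCGG, the box of Sp1, was present in 26 (96.3%), compared with 77.2% and 48.3%. A match is a description of the letters and not a bound site, and genes with several start sites had more sequence to match. Windows of 24 bases around the SRE and the E-boxes are shown because these letters are few among the members, and those around CCAAT because SREBF2, DHCR7 and ACACA differed most between the samples. For ACACA, 1 of its 3 CCAAT matches is shown, and the other 2 lie before another start site. The capitals mark the motif, read along the strand of the gene, and ATTGG is CCAAT on the other strand.
SREBF2, SRE, chr22:41832965-41832988, plus strand, starting 133 bases before the start site: cgcgccaTCACCCCACgcaccgct
SREBF2, NF-Y box, chr22:41832990-41833013, plus strand, starting 106 bases before it: cgctcgcccATTGGctgagatgag
INSIG1, E-box, chr7:155297814-155297837, plus strand, starting 55 bases before it: gggcaggctCACGTGatgcgggcc
SCAP, E-box, chr3:47475985-47476008, minus strand, starting 58 bases before it: cgctgggcgCACGTGcggagggcg
SC5DL (SC5D), E-box, chr11:121292631-121292654, plus strand, starting 131 bases before the nearer of its start sites: cgcggcgccCACGTGaccgcggag
LSS, E-box, chr21:46228725-46228748, minus strand, after the start site: gcaatgacggagggCACGTGagtc
DHCR7, NF-Y box, chr11:71448473-71448496, minus strand, starting 94 bases before it: gctcctcgaCCAATcacggggcgc
DHCR7, NF-Y box, chr11:71448427-71448450, minus strand, starting 48 bases before it: ccgcctccgATTGGcaggcaatcg
ACACA, NF-Y box, chr17:37359308-37359331, minus strand, starting 226 bases before a start site: cgccctcccATTGGctgccgctga
The median log2 difference (PERK-KO over WT, the sense of every log2 difference given here) was 0.04 over the 20 members with CCAAT. It was 0.17 over the 7 without it, although DHCR7, SREBF2 and ACACA are among the 20. These medians are not corrected for transcript length, with which the differences of the members rose. A part of the motif in the differences was not tested.

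Across the pathway the samples were close, and the medians of the arms differed less once transcript length was taken into account. The FPKM of 11 of the 31 members (35.5%) was higher in PERK-KO cells with confidence limits that did not overlap, compared with 26.1% of all 14594 genes, and that of 4 (12.9%) was lower, compared with 18.7%. More than 1.5-fold higher were 2 members, DHCR7 and ACACA (6.45%, compared with 10.1% of all genes), and no member was more than 1.5-fold lower (7.54% of all genes). Neither of the 2 calls held under every alternative, since DHCR7 fell to a log2 difference of 0.57 when values were rescaled by the median and 0.58 by the 75th percentile, under the threshold, and ACACA to 0.33 with the length trend subtracted. The median log2 difference of the members was 0.06, compared with 0.04 over all genes. It was -0.13 over the 7 enzymes from acetoacetyl-CoA to farnesyl diphosphate and 0.04 over the 11 from squalene to cholesterol. It was 0.28 over the 5 SREBP regulators and 0.29 over the 7 genes of fatty acid synthesis. With the running median of all genes over transcript length subtracted, these 4 medians were -0.02, 0.09, 0.10 and 0.12, all within the quartiles of all genes treated in the same way (-0.22 and 0.22). Summed over the 18 sterol enzymes the FPKM was 1045 in WT and 1009 in PERK-KO cells, and over the 7 fatty acid genes 521 and 646. These sums are not corrected for length and rest mostly on the most abundant genes, in the fatty acid group SCD, FASN, FADS1 and FADS2.

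The early enzymes of the mevalonate route had equal or lower values in PERK-KO cells. ACAT2, the cytosolic thiolase that joins acetyl-CoA units, had 63.6 (59.6 to 67.7) in WT and 58.1 (54.1 to 62.0) in PERK-KO cells. HMGCS1, which makes HMG-CoA and is a standard SREBP-2 target, had 87.5 (84.3 to 90.7) and 81.7 (78.7 to 84.7), a log2 difference of -0.10. The limits of both genes overlapped between the samples. MVK, mevalonate kinase, had 23.4 (21.6 to 25.1) and 20.6 (18.8 to 22.3), again with overlapping limits. PMVK, the next kinase, stood apart from them with 51.3 (48.2 to 54.4) and 37.6 (34.8 to 40.4), the lowest log2 difference of all members at -0.45 (-0.64 to -0.25 by the limits). MVD, the decarboxylase that makes isopentenyl diphosphate, had 57.8 (55.1 to 60.5) and 54.1 (51.4 to 56.9). The level of IDI1, the isomerase of that product, was the same in both samples within the limits, at 58.7 (55.3 to 62.2) and 59.4 (55.8 to 63.0). FDPS, which builds farnesyl diphosphate for sterols and for protein prenylation, had 103 (98.4 to 108) and 89.0 (84.3 to 93.8), and its limits did not overlap. Of these 7 enzymes, 2 were therefore lower beyond the limits (28.6%, compared with 18.7% of all genes). The other 5 overlapped, and none was higher beyond the limits (26.1% of all genes). With the running median over length subtracted, PMVK had -0.14 and FDPS -0.02, within the quartiles of all genes (-0.22 and 0.22).

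The enzymes from squalene to cholesterol were mixed. FDFT1, squalene synthase, had 70.4 (67.7 to 73.1) in WT and 65.4 (62.6 to 68.2) in PERK-KO cells. SQLE, the epoxidase and a control point of the route, had 75.9 (73.6 to 78.2) and 86.0 (83.3 to 88.6), a log2 difference of 0.18 with limits apart. The cyclase that closes the sterol rings is LSS. It had 31.3 (29.8 to 32.7) and 32.2 (30.6 to 33.8). CYP51A1, the lanosterol demethylase, had 32.8 (31.0 to 34.6) and 36.3 (34.3 to 38.4), with limits that just overlapped. TM7SF2 and EBP were lower in PERK-KO cells. TM7SF2, a sterol reductase of the ER and the nuclear envelope, had 56.9 (54.0 to 59.7) and 41.9 (39.3 to 44.6), a log2 difference of -0.44. EBP, the sterol isomerase, had 138 (133 to 143) and 111 (106 to 116), a log2 difference of -0.32. LBR, whose sterol reductase acts at the same step as TM7SF2, is not a member and was picked out after its value was seen, as it went the other way, with 50.8 (48.1 to 53.4) and 70.1 (66.5 to 73.7).

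The demethylation enzymes that act between TM7SF2 and EBP, and SC5DL after EBP, differed by less than the limits. MSMO1, the methyl sterol oxidase, had 45.0 (42.4 to 47.6) in WT and 47.6 (44.8 to 50.3) in PERK-KO cells. NSDHL, which removes the oxidised carbon, had 48.3 (45.1 to 51.5) and 50.3 (46.8 to 53.8). HSD17B7, the ketosteroid reductase of this complex, had 14.6 (13.1 to 16.1) and 15.0 (13.4 to 16.6). The pseudogene HSD17B7P2 was listed at 7.91 and 8.44, so some fragments of HSD17B7 may have been shared with it. SC5DL, the desaturase now named SC5D, had 15.4 (14.5 to 16.3) and 15.6 (14.7 to 16.5).

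DHCR7 was the exception among the sterol enzymes. Its locus is 71145457 to 71159477 of chromosome 11 on GRCh37, minus strand. The canonical transcript counts 9 exons and 2627 bases and encodes the reductase that makes cholesterol from its last precursor, which is also the precursor of vitamin D. Its FPKM was 70.6 (67.4 to 73.7) in WT and 107 (103 to 112) in PERK-KO cells, a 1.52-fold difference and a log2 difference of 0.61 (0.48 to 0.73 by the limits). The neighbouring steps, EBP and SC5DL, did not share it, with log2 differences of -0.32 and 0.02. DHCR7 had 0.511 times the level of EBP in WT cells and 0.971 times in PERK-KO cells. Relative to HMGCS1, an early enzyme of the mevalonate route, DHCR7 had 0.806 and 1.32 times the level. These ratios are not corrected for length. The running median over length was -0.26 for EBP, -0.003 for DHCR7 and 0.19 for HMGCS1. Among all genes the log2 difference of DHCR7 lay at percentile 91.0.

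**Figure D1:**
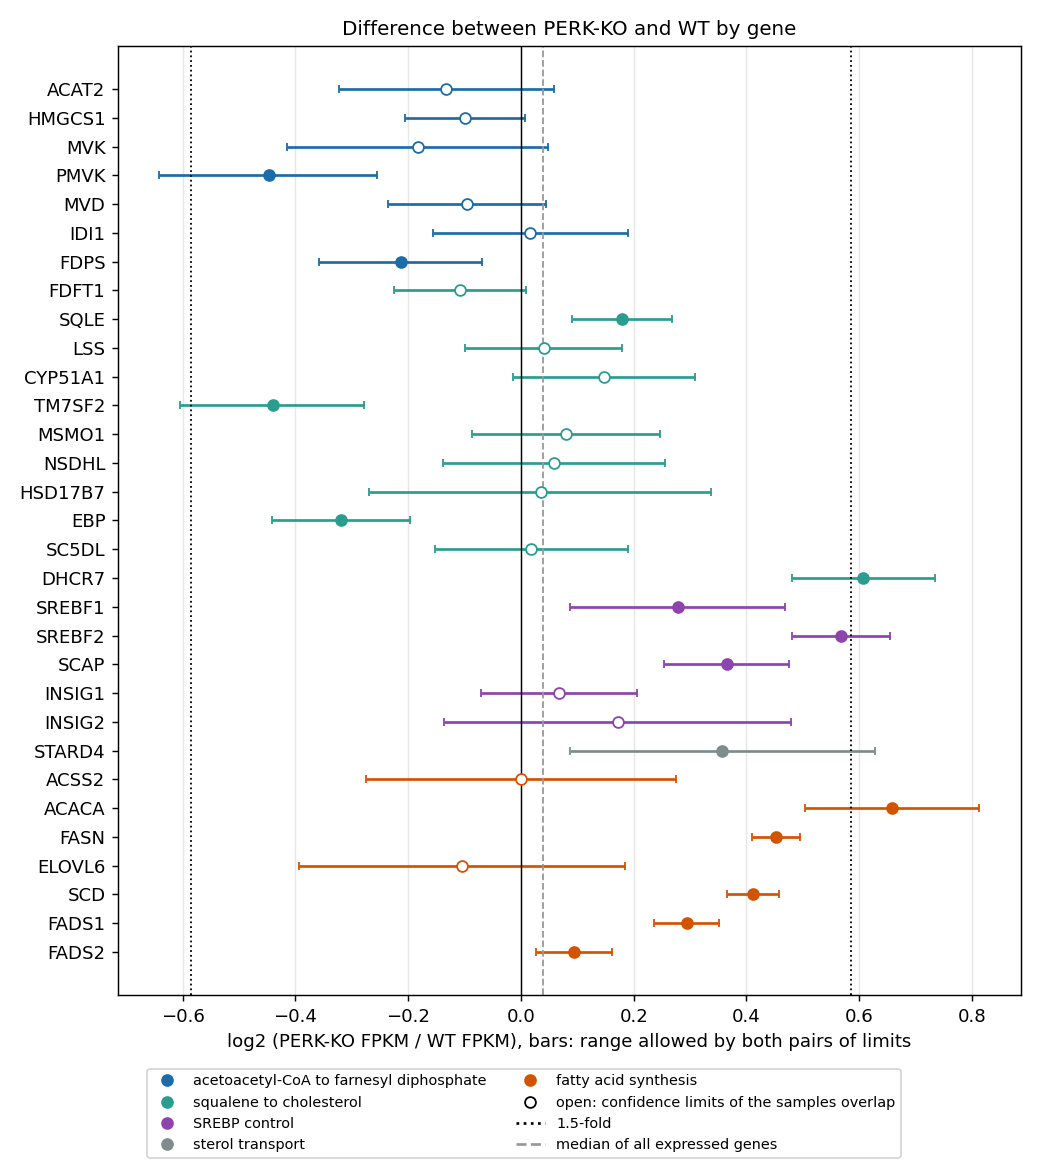
Log2 ratio of PERK-KO to WT FPKM for each member, with bars for the range that the confidence limits of both samples allow, filled points where those limits were apart, dotted lines at 1.5-fold and a dashed line at the median of all genes. DHCR7 (0.61) and ACACA (0.66) lie past the upper dotted line, and PMVK (-0.45) and TM7SF2 (-0.44) are the lowest.

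The genes of the SREBP precursors and SCAP had higher values in PERK-KO cells, and the INSIG genes overlapped. Thus 3 of these 5 regulators were higher with limits apart (60.0%, compared with 26.1% of all genes). Their transcripts are long, with a median of 4254 bases over the 5, and genes of such length were higher in general. With the running median over length subtracted, SREBF2 had 0.39, SCAP 0.25 and SREBF1 0.08. The SREBF2 locus is 42229106 to 42302375 of chromosome 22 on GRCh37, plus strand. It had 46.6 (45.1 to 48.1) in WT and 69.1 (67.1 to 71.0) in PERK-KO cells, a 1.48-fold difference just under the threshold of 1.5-fold. SREBF1 had 12.9 (12.1 to 13.8) and 15.7 (14.6 to 16.7), a log2 difference of 0.28. SREBF2 was thus the more abundant of the pair, at 3.60 times the level of SREBF1 in WT cells and 4.41 times in PERK-KO cells. The gene-level values do not separate the SREBP-1a and SREBP-1c transcripts. SCAP had 31.4 (30.1 to 32.6) and 40.4 (38.9 to 41.9), a log2 difference of 0.37. INSIG1, which is itself an SREBP target and so a readout of the pathway, had 75.4 (72.0 to 78.8) and 79.1 (75.1 to 83.1). INSIG2, the isoform known to respond less to SREBPs, had 7.59 (6.79 to 8.39) and 8.55 (7.64 to 9.46), the lowest level of all members in WT cells. INSIG1 stood at 2.41 times the level of SCAP in WT cells (2.21 to 2.62 by the limits) and at 1.96 times in PERK-KO cells (1.79 to 2.14). This ratio is not corrected for length, and the running median over length was 0.04 for INSIG1 and 0.11 for SCAP. STARD4, a cytosolic sterol carrier and SREBP-2 target, had 13.2 (11.9 to 14.5) and 16.9 (15.4 to 18.4), with limits apart.

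In fatty acid synthesis, 5 of the 7 genes were higher in PERK-KO cells with limits apart (71.4%, compared with 26.1% of all genes), and none was lower (18.7% of all genes). Their transcripts are long, and genes of such length were higher in general. With the running median over length subtracted, FASN had 0.12, FADS1 0.16 and FADS2 0.04, within the quartiles of all genes. The route starts with acetyl-CoA, which ACSS2 makes from acetate. ACSS2 had 10.7 in both samples (9.69 to 11.7 in WT and 9.65 to 11.7 in PERK-KO cells). ACACA, acetyl-CoA carboxylase, which commits acetyl-CoA to fatty acids, had 8.54 (8.06 to 9.02) and 13.5 (12.8 to 14.2), a 1.58-fold difference and the highest log2 difference of the members at 0.66 (0.50 to 0.81 by the limits). Its locus is 35441927 to 35766902 of chromosome 17 on GRCh37, minus strand, and its canonical transcript counts 56 exons. FASN, the fatty acid synthase, had 105 (103 to 106) and 143 (141 to 145), a log2 difference of 0.45. The synthase remained far above the carboxylase, at 12.3 times its level in WT and 10.6 times in PERK-KO cells. SCD, which puts the first double bond into stearate, had 139 (137 to 142) and 186 (183 to 188), the highest level of the members in both samples.

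The desaturases of polyunsaturated fatty acids were abundant as well. FADS1 had 119 (117 to 122) in WT and 146 (143 to 149) in PERK-KO cells. FADS2, which acts before it, had 130.4 (127 to 133) and 139 (136 to 143), a log2 difference of 0.09. As deposited, the order of this pair was reversed between the samples. FADS2 was 1.09 times FADS1 in WT cells (1.05 to 1.14 by the limits) and 0.953 times in PERK-KO cells (0.913 to 0.995). These ratios are not corrected for length, and the running median over length was 0.14 for FADS1 and 0.05 for FADS2. A reversal apart from the length trend is therefore not shown. ELOVL6, the elongase that supplies SCD with stearate, was the one fatty acid gene with a lower value, at 8.42 (7.60 to 9.24) and 7.83 (7.03 to 8.64), and its limits overlapped.

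The order of the members by level was largely kept, with SCD first in both samples. In each sample, 10 of the 30 pairs of neighbours in this order had limits apart, and the other 20 pairs did not differ beyond them. DHCR7 stood at place 10 in WT and 6 in PERK-KO cells, and SREBF2 at 18 and 11. EBP stood at 2 and 5, and PMVK at 16 and 20. The members ranged from percentile 44.3 to 94.7 of the counted genes in WT cells.

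The differences of the members followed the length of their transcripts, as did those of all genes. Lengths are those of GENCODE 44 canonical transcripts on GRCh37. Over the 31 members Spearman's rho of length and log2 difference was 0.63, and over 13488 genes with a length it was 0.45. These are descriptions across genes that share the same 2 libraries. For transcripts of up to 1500 bases the median log2 difference was -0.29 over 2186 genes and -0.32 over 3 members. Above 4000 bases it was 0.23 over 5061 genes and 0.33 over 12 members. The mevalonate enzymes have short transcripts, with a median of 1799 bases, and the fatty acid genes long ones, with a median of 5245. With the running median subtracted, 20 of the 31 members were above genes of their length and 11 below.

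After the subtraction most members lay within the quartiles of all genes (-0.217 and 0.221), and by definition many of all genes lie outside these. Some single members lay outside them too. DHCR7 had 0.61 after the subtraction, at percentile 94.2 of all genes, SREBF2 0.39 at percentile 87.0 and ACACA 0.33 at percentile 83.9. All 5 SREBP regulators were above the running median, which by construction lies in the middle of genes of each length. SCAP had 0.25. INSIG2 had 0.10, SREBF1 0.08 and INSIG1 0.03, within the quartiles of all genes (-0.22 and 0.22). PMVK had -0.14 and EBP -0.06, while TM7SF2 kept -0.28. SCD had 0.229 and SC5DL -0.224, just outside the quartiles. HMGCS1, at -0.28, and ELOVL6, at -0.36, were below genes of their length although their own limits overlapped between the samples. What sets the length trend was not tested.

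Other genes of the pathway were read from lists that exclude the members. Of 6 other sterol enzymes, 2 were higher with limits apart (33.3%, compared with 26.1% of all genes). None was lower (18.7% of all genes), and the median log2 difference was 0.07. Among 12 genes for SREBP cleavage and for sterol-regulated degradation in the ER, 8 were higher in PERK-KO cells with limits apart (66.7%, compared with 26.1% of all genes). With limits apart, 1 was lower (8.33%, compared with 18.7%). None passed 1.5-fold (10.1% of all genes were higher and 7.54% lower by this measure), and the median log2 difference was 0.17. MBTPS2, a protease that releases SREBPs from the membrane, had 44.2 (42.8 to 45.6) in WT and 48.6 (47.0 to 50.2) in PERK-KO cells. FAF2, an ER protein of the degradation route, had 16.8 (15.9 to 17.7) and 23.8 (22.7 to 24.9). Both genes were picked out after their values were seen. With the running median over length subtracted, the median of this list was 0.09, and 7 of the 12 were above it.

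Among 18 other genes of fatty acid metabolism that could be counted, 5 were higher with limits apart (27.8%, compared with 26.1% of all genes). Another 3 were lower (16.7%, compared with 18.7%), and the median was 0.08. None passed 1.5-fold (10.1% of all genes were higher and 7.54% lower by this measure). ACLY, which supplies cytosolic acetyl-CoA from citrate, had 66.0 (63.3 to 68.6) in WT and 85.1 (81.6 to 88.5) in PERK-KO cells, which is 0.37 on the log2 scale. SLC25A1, the mitochondrial citrate carrier that exports its substrate, went the other way, with 175 (168 to 181) and 118 (113 to 124), and was picked out after its value was seen. Among 9 genes of cholesterol uptake and trafficking, 2 were higher with limits apart (22.2%, compared with 26.1% of all genes). Another 2 were lower (22.2%, compared with 18.7%), and the median was 0.07. OSBP, a sterol and phosphoinositide exchanger between ER and Golgi, had 23.9 (22.96 to 24.93) and 42.5 (41.1 to 43.9), a 1.77-fold difference, and passed 1.5-fold with limits apart. STARD5, named after its value was seen, was also past 1.5-fold, but its limits overlapped. These 2 of the 9 genes are 22.2%, compared with 10.1% of all genes more than 1.5-fold higher.

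Fragments from overlapping genes limit some of these values. Exons of 11 members share bases with another GENCODE gene, and for 5 of them, ACAT2, IDI1, FDPS, SREBF1 and STARD4, that gene is also in the tables. Nothing in the sources used here says that strand was used in counting, so such fragments cannot be told apart.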

How the data were processed

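Poly(A)-selected RNA of 1 WT and 1 PERK-KO HEK293 sample was sequenced. Reads had been mapped by the authors to hg19, who then computed FPKM per gene with Cufflinks and Cuffdiff (per the labels, TopHat2 2.0.13 and Cufflinks 2.2.1) and deposited, for each sample, FPKM with lower and upper confidence limits. The gene annotation is not given in the sources used here. The number of fragments per sample was not in the tables analysed here, so precision rests on the deposited limits, which cover counting error only.

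A gene was counted where either sample reached an FPKM of 1, and ratios were PERK-KO over WT without a pseudocount. The range by the limits is the lower limit of one sample over the upper limit of the other, and the reverse. The threshold was 1.5-fold, and with 1 sample per genotype no test was made. Transcript lengths came from GENCODE 44 canonical transcripts on GRCh37, which need not be the annotation the authors used, joined by symbol or, failing that, by a reciprocal overlap of at least 0.7, for 92.5% of counted genes. The tables count starts from 0, and starts are printed from 1. Promoters were RefSeq sequences of GRCh38.p14, and no coordinate was moved between builds. Figures were drawn with matplotlib 3.10.9. Values were computed in Python 3.11.15 with pandas 2.3.3, scipy 1.17.1 and numpy 2.4.6, and the calculations were tested on simulated data.

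The members, lists and tests were chosen with earlier results of these data known. All members are named, with, from each other list, ACLY and at most 4 genes past 1.5-fold with limits apart. Genes named outside this rule are marked as such in the text. Another 4 genes of the other lists, which the rule had named, are not reported here and were left out of the counts and medians of those lists after their values had been seen. Alternatives were other filters, a pseudocount of 0.1 or 1, scaling to the median or to the 75th percentile, subtracting the length trend, summing rows of a gene and thresholds of 1.2-fold and 2-fold.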

Additional observations from a re-analysis of the deposited data

How the results depend on the processing

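No paired analysis was possible because each genotype has 1 sample, and for the same reason no replicate could be left out. The filters, the pseudocounts of 0.1 and 1, and summing rows left the counts of members past 1.5-fold at 2 higher and 0 lower, and the largest move of a group median was that of the SREBP regulators, from 0.28 to 0.26 with a pseudocount of 1. The count of members more than 1.5-fold higher, 2, became 1 when values were rescaled by the median (ACACA), 1 when rescaled by the 75th percentile (ACACA) and 1 with the length trend subtracted (DHCR7). With the length trend subtracted, 6.28% of all genes with a length were increased and 5.17% reduced. The count of members higher was 9 at a threshold of 1.2-fold and 0 at 2-fold. The count of members lower, 0, was 3 at 1.2-fold. The shares of all genes past 1.2-fold and 2-fold are not given here, so these counts have nothing to be judged against. The median of the fatty acid genes, 0.29, was 0.118 with the length trend subtracted. That subtraction moved 13 of the 31 members beyond the range of their limits and changed the sign of 5, ACAT2, MVD, LSS, SC5DL and ACSS2, none of which had limits apart. Rescaling by the median changed the sign of IDI1, HSD17B7, SC5DL and ACSS2, and rescaling by the 75th percentile that of IDI1, SC5DL and ACSS2.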

Other observations

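The genes of cholesterol export and of glycerolipid synthesis, which take up the products of the pathway, were also listed. Of 10 genes of LXR signalling, efflux and esterification, 6 could be counted, with a median log2 difference of -0.24. With limits apart, 1 was higher (16.7%, compared with 26.1% of all genes) and 1 lower (16.7%, compared with 18.7%). ABCG1, named after its value was seen, was more than 1.5-fold lower with overlapping limits, at 1.23 in WT and 0.717 in PERK-KO cells. Of all genes, 7.54% were more than 1.5-fold lower. ABCG1 passed the filter only through its WT value, close to the FPKM of 1 required, so its fold is not read as a result. Its log2 difference of -0.78 is the lowest of the 6. With the running median over transcript length subtracted, the median of this list was -0.13. NR1H2, a sterol-sensing nuclear receptor, had an FPKM of 23.8 (22.0 to 25.5) in WT and 19.4 (17.7 to 21.1) in PERK-KO cells, and SOAT1, which esterifies cholesterol for storage, had 11.4 (10.7 to 12.1) and 13.3 (12.5 to 14.2). The exporter gene ABCA1 was below 1 in both samples, at 0.0385 and 0.126. These 3 genes were picked out after their values were seen.

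Among 9 glycerolipid genes, 2 were higher in the PERK-KO sample with limits apart (22.2%, compared with 26.1% of all genes). The same 2 passed 1.5-fold upward, as did 10.1% of all genes whether or not their limits overlapped. Another 2 were lower with limits apart (22.2%, compared with 18.7% of all genes), and the median log2 difference was 0.15. That median turned to -0.09 with the running median over transcript length subtracted, with 3 genes above it and 6 below. PCYT1A, the rate-limiting enzyme of phosphatidylcholine synthesis by the CDP-choline route, had 7.28 (6.25 to 8.31) and 12.9 (11.5 to 14.4), a 1.78-fold difference. PNPLA3, a lipid droplet protein and SREBP-1 target, had 2.50 (2.07 to 2.94) and 3.93 (3.33 to 4.52). PCYT2, the enzyme of the parallel phosphatidylethanolamine route, was picked out after its value was seen, as it was lower, with 15.2 (14.1 to 16.3) and 11.5 (10.5 to 12.6). Each value is from 1 sample.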
